A study of Homo sapiens with 12 samples.

Results

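Prostaglandin E2 is a short-lived lipid signal, and the 10 genes described here encode proteins that make it, sense it, take it up and break it down. They were chosen by name from the 57500 genes of the count table (HPGD, PTGS1, PTGS2, PTGES, PTGES2, PTGES3, PTGER2, PTGER4, SLCO2A1 and PTGR1), and all 10 were found there, each with 1 Ensembl identifier. HPGD was picked for its low level in SW620 against SW480, so its values in the colorectal lines are a description without a test. Total RNA was sequenced after removal of ribosomal RNA in 12 libraries of 3 established human cancer cell lines, as 4 groups of 3 biological replicates. SW480 came from a primary colorectal tumour and SW620 from a metastasis of the same patient, and both were untreated in DMEM with 10% serum. PEO4, an ovarian cancer line, was grown in RPMI 1640 with 10% serum, without addition (control) or with recombinant human TGF-β at 10 ng/mL for 6 days. Each line is a single tumour model, so the colorectal comparison sets 1 line against 1 line, and the 3 replicates measure the spread of cultures and libraries, not of tumours.

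As background, prostanoid synthesis starts when a phospholipase A2 frees arachidonic acid. The cyclooxygenases PTGS1 (COX-1, usually constitutive) and PTGS2 (COX-2, inducible) turn it into prostaglandin H2, which terminal synthases convert to prostaglandin E2 or other prostanoids. Prostaglandin E2 acts on cell-surface receptors, of which PTGER2 (EP2) and PTGER4 (EP4) raise cyclic AMP. The transporter SLCO2A1 carries it back into cells, where HPGD, the hydroxyprostaglandin dehydrogenase, oxidises it and PTGR1, a reductase, acts on the product. In the intestine HPGD is known as a gene of differentiated epithelium that is often lost in colorectal cancer, where COX-2 is often raised.

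Library totals ran from 14.5 to 22.0 in units of 1e6 counts, and 3 counts, the limit that a count of 0 allows, corresponded to 0.139 to 0.176 CPM (counts per 1e6 counts, scaled by TMM factors over all 12 libraries). The summed line markers were highest in the lines they mark, but not every single marker was. The colorectal markers CDX2, VIL1, CDH17, LGR5 and GPA33 summed to 35.7 to 59.0 CPM in SW480, 270.3 to 392.7 CPM in SW620 and at most 3.32 CPM in PEO4, where no library held over 3 counts of CDX2, CDH17 or GPA33. LGR5, CDH17 and GPA33 were also low in SW480, averaging 1.16, 0.549 and 0.469 CPM. GPA33 ran from 1 to 26 counts per SW620 library. The ovarian markers PAX8, WT1, MSLN, EMX2 and FOLR1 summed to at least 1150 CPM in PEO4 and to 63.5 to 155 CPM in the SW lines. FOLR1 alone went against its list, with a mean of 16.4 CPM in SW620, 12.6 in PEO4 control and 8.80 with TGF-β. The leukocyte and endothelial markers PTPRC, CD3E, CD79A, CD68, PECAM1 and CDH5 summed to at most 9.45 CPM in any library. SW620 replicate 3 carried a trace of PEO4-like reads. In it, 47 genes that were strong in PEO4 control and nearly absent from the other SW620 libraries stood at 0.88% of their PEO4 level. The same measure gave 0.178% to 0.208% in the SW480 libraries, on 15 to 24 genes. For SW620 replicates 1 and 2 no gene met the rule, so no share could be given for them. Because of that trace, the main differences of SW620 are also given without replicate 3.

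The sequences below, from RefSeq (GRCh38.p14, matched by symbol for 9 of the 10 genes), are the 250 bases before each start site of the genes with the widest differences between groups. HPGD and PTGR1 are shown because both were near the detection limit in SW620, and PTGS1 because it was lower with TGF-β. Each is written 5′ to 3′ on the gene's strand. Capitals mark matches on either strand to 4 motifs. The E-box bound by Snail factors was searched as CAGGTG. The TATA box was searched as TATAAA. The cyclic AMP response half-site was searched as TGACG. The SMAD box was searched as GTCTG. HPGD and PTGS1 each have a pair of start sites in the table.
HPGD, chr4:174522489-174522738, minus strand: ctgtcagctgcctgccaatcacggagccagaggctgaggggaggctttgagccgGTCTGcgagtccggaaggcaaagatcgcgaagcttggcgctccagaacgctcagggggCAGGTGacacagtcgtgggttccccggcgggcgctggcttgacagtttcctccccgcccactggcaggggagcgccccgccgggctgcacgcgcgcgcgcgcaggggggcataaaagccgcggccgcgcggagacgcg
HPGD, chr4:174522894-174523143, minus strand: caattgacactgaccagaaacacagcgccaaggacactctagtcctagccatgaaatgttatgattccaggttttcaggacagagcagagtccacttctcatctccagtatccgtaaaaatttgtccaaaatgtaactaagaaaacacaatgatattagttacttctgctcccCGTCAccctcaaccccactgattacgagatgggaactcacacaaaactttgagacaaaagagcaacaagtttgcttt
PTGR1, chr9:111599432-111599681, minus strand: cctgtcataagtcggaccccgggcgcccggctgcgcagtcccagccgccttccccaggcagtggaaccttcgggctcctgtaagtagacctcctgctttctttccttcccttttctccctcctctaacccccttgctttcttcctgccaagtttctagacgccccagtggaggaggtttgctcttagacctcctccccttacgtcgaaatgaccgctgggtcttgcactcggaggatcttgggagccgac
PTGS1, chr9:122370283-122370532, plus strand: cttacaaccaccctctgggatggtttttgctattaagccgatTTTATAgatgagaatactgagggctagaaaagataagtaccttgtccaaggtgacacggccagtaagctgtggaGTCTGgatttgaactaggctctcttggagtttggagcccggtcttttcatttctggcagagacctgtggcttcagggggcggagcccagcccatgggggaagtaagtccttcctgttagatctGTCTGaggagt
PTGS1, chr9:122375052-122375301, plus strand: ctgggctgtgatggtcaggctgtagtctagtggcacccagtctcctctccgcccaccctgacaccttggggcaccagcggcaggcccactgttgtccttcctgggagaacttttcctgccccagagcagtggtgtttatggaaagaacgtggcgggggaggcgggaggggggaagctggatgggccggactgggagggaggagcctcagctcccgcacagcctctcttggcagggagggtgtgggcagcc

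The first HPGD window was rich in CG pairs, with 29 in 250 bases, more than 85.9% of 35116 RefSeq promoters of the same length (median 11). It held 1 CAGGTG, starting 138 bases before the start site, and 1 GTCTG. Of all promoters, 17.5% held CAGGTG and 38.0% held GTCTG, so both are common. The second HPGD window, farther upstream, had 4 CG pairs and 1 TGACG match, a half-site found in 21.2% of promoters. The PTGR1 window had 13 CG pairs and none of the 4 motifs. The first PTGS1 window had 4 CG pairs, 2 GTCTG matches and 1 TATAAA (10.7% of promoters), the latter 208 bases from the start, and the second had 7 CG pairs and no match. No motif was thus shared by the HPGD and PTGR1 windows. These are matches of letters and were not compared with binding data.

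The first question is how the breakdown arm differed between the metastatic line SW620 and the primary line SW480. Here both enzymes were lower in SW620, while the carrier had too few counts to be tested in this comparison. HPGD (ENSG00000164120, chr4:174490177-174523154 on GRCh38 in GENCODE 29, minus strand) had 54.9, 41.9 and 56.3 CPM in SW480 replicates 1 to 3, against 0.195, 0.270 and 0.186 CPM in SW620. The raw counts behind these values were 715 to 1094 per SW480 library against 4 or 5 per SW620 library, and the groups did not overlap. The fitted log2 fold change was -7.83 ± 0.27 (SE, n = 3), or 227-fold, which chose the gene and is not tested here. It ran from -7.97 to -7.73 when single libraries were left out, with -7.74 without SW620 replicate 3. At that trace, PEO4-like reads would add 0.0138 counts of HPGD to that library.

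PTGR1 (ENSG00000106853, chr9:111549722-111599893, minus strand), the next enzyme of the path and also known for inactivating leukotriene B4, was also near the detection limit in SW620. It had 10.1, 5.74 and 10.5 CPM in SW480, against 0.0975, 0.216 and 0.0465 CPM in SW620, which is 98 to 203 counts per library against 1 to 4. SW480 replicate 2 was the lowest of its group and still far above every SW620 library. The log2 fold change was -6.14 ± 0.51 (SE, n = 3), or 70.3-fold lower (edgeR quasi-likelihood adjusted p 3.72e-05). Without SW620 replicate 3 the value was -5.76, and the single PTGR1 count of that library was below the 1.61 counts that the PEO4 trace would give. PTGR1 passed the count filter through SW480 alone, so it had to differ, and its test adds little to the counts themselves.

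SLCO2A1 (ENSG00000174640, chr3:133928145-134052184), the prostaglandin transporter, was low in both SW lines and did not pass the count filter there. Its counts were 22, 5 and 11 in SW480 replicates 1 to 3 and 0, 4 and 0 in SW620. Summed over libraries these were 38 against 4 counts, a ratio of 10.2 (exact 95% interval 3.68 to 39.4, covering counting error only). In the model of all 12 libraries, where the PEO4 groups carried it past the filter, the log2 fold change was -3.18 ± 0.86 (SE, n = 3; edgeR quasi-likelihood adjusted p 0.0095).

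**Figure D1:**
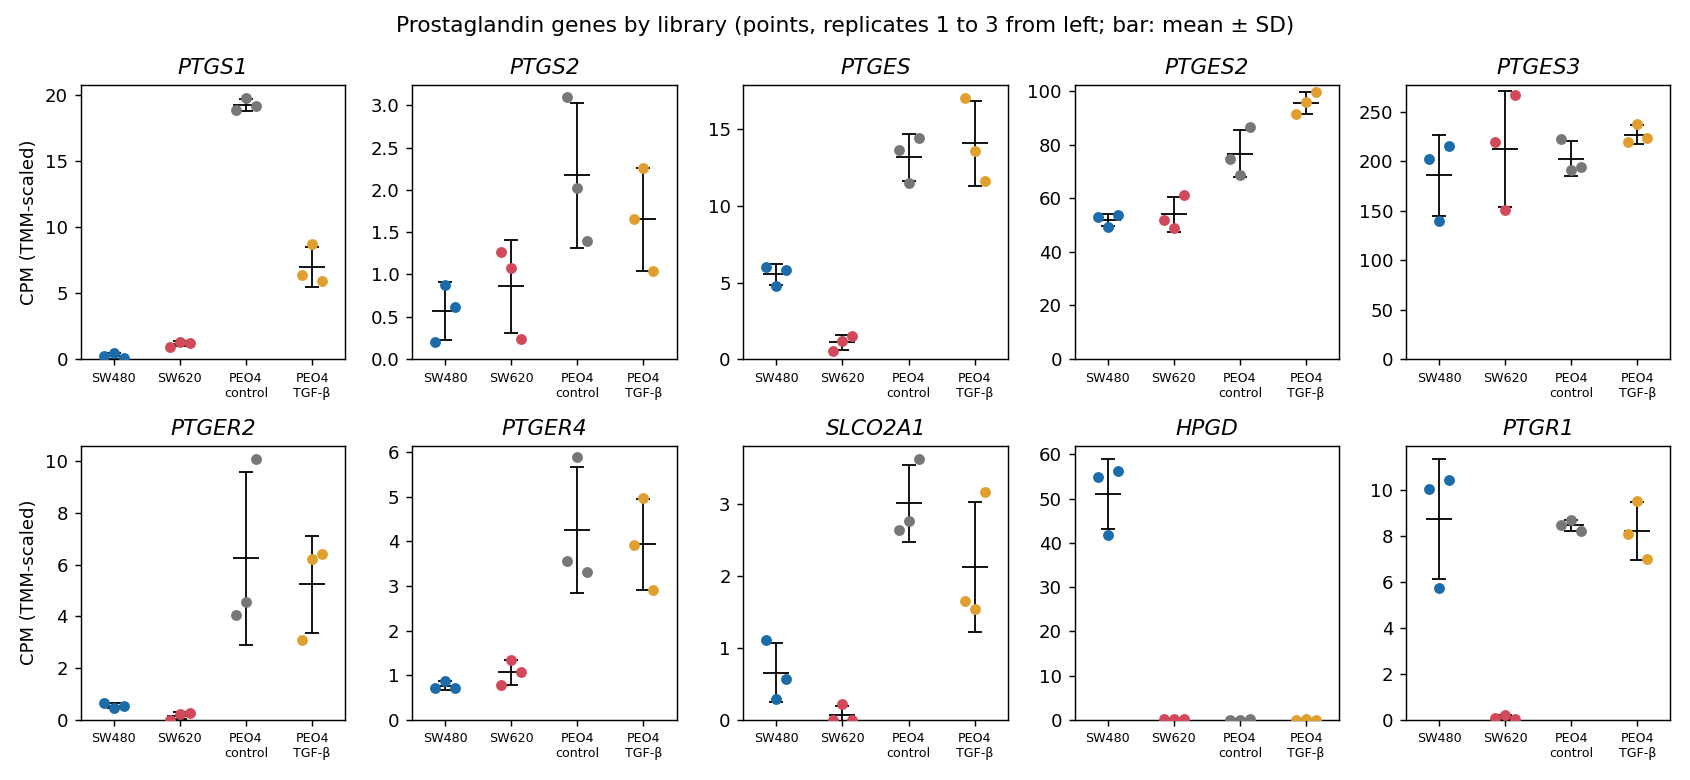
Level of each of the 10 prostaglandin genes in every library, in TMM-scaled CPM on a linear axis from 0. Points are replicates 1 to 3 from left to right within each of the 4 groups, and bars give the mean ± SD (n = 3). HPGD stood at 41.9 to 56.3 CPM in SW480 and below 0.3 CPM in the other 3 groups, while PTGS1 was highest in PEO4 control.

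The genes that flank HPGD and PTGR1 were read as well, taking the 3 nearest protein-coding genes on each side, a choice made after the values of HPGD were known. Overlapping genes were left out, among them ZNF483, which overlaps PTGR1 on the opposite strand. Around HPGD on chromosome 4, CEP44 (157 kb away) averaged 13.6 and 14.7 CPM in the primary and metastatic lines, and FBXO8 (206 kb away) had 8.58 and 7.82 CPM. Their log2 fold changes were 0.14 and -0.11, with adjusted p of 0.689 and 0.824 in edgeR's test. The other 4 flanking genes, HAND2, GLRA3, ADAM29 and GPM6A, were too low in the SW lines to be tested. Around PTGR1 on chromosome 9, ECPAS had a log2 fold change of -0.15 and DNAJC25 of -0.01 (adjusted p 0.541 and 0.983), while GNG10 was lower in SW620 (-1.15, adjusted p 0.0177) and LPAR1 higher (3.10, adjusted p 0.000132). OR2K2 and DNAJC25-GNG10 had no test. No tested neighbour of HPGD thus passed.

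Among the enzymes that make prostaglandin E2, the inducible synthase PTGES was lower in SW620, and PTGES2 and PTGES3 did not pass the test. PTGES (microsomal prostaglandin E synthase, ENSG00000148344, chr9:129738331-129753047) had 6.05, 4.74 and 5.82 CPM in SW480, against 0.536, 1.19 and 1.53 CPM in SW620, with no overlap. The log2 fold change was -2.32 ± 0.41 (SE, n = 3), or 5.00-fold lower (edgeR quasi-likelihood adjusted p 0.00236). Without SW620 replicate 3, the highest SW620 library, it was -2.68. PTGES2 (ENSG00000148334, chr9:128120693-128128462), a second membrane-associated synthase, averaged 52.0 ± 2.31 CPM (SD, n = 3) in SW480, against 54.1 ± 6.45 in SW620. Its log2 fold change of 0.08 had a 95% interval from -0.22 to 0.37. PTGES3 (ENSG00000110958, chr12:56663341-56688408), the cytosolic synthase better known as the HSP90 co-chaperone p23 and with pseudogene copies that make its counts uncertain, measured 203, 139 and 215 CPM across SW480 replicates, against 220, 151 and 267 in SW620. Replicate 2 was the lowest library of both lines, and the lines overlapped (log2 fold change 0.21, 95% interval -0.28 to 0.71).

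The cyclooxygenases were scarce in both colorectal lines. PTGS2 (ENSG00000073756, chr1:186671791-186680427) gave 4 to 15 counts in each library of SW480, against 5 to 26 in SW620, and its replicates spanned 0.202 to 0.878 CPM and 0.232 to 1.27 CPM. The log2 fold change of 0.63 ± 0.73 (SE) did not pass (adjusted p 0.572, edgeR's quasi-likelihood test), and its 95% interval ran from -0.80 to 2.06. PTGS1 (ENSG00000095303, chr9:122370530-122395703) had 4, 8 and 1 counts in SW480 replicates 1 to 3 and 19, 24 and 26 in SW620, or 0.241 ± 0.211 against 1.14 ± 0.193 CPM (SD, n = 3). It was higher in SW620 by a log2 fold change of 2.27 ± 0.66 (SE), or 4.82-fold (edgeR quasi-likelihood adjusted p 0.0297). That call was lost in the test against a 2-fold change (adjusted p 0.139) and without SW480 replicate 1, SW480 replicate 3 or SW620 replicate 1 (log2 fold changes 2.19, 1.78 and 2.43, adjusted p 0.121, 0.102 and 0.0743). Without SW620 replicate 3, where the PEO4 trace would make up 14% of the PTGS1 counts, it was 2.22 with an adjusted p of 0.0389. PTGS1 passed the count filter through SW620 alone, where it was higher, so its test adds little to the counts themselves.

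The receptors were low in both lines, PTGER2 nearer to the detection limit than PTGER4. PTGER4 (EP4, ENSG00000171522, chr5:40679498-40693735) gave 14 or 15 counts in each library of SW480, against 16 to 25 in SW620, a log2 fold change of 0.49 with a 95% interval from -0.37 to 1.35. PTGER2 (EP2, ENSG00000125384, chr14:52314305-52328606) had 13, 8 and 10 counts in SW480 and 0, 4 and 6 in SW620 and did not pass the count filter of this comparison. Its summed counts of 31 and 10 gave a ratio of 3.33 (exact 95% interval 1.59 to 7.62, counting error only). In the model of all 12 libraries PTGER2 did not pass (log2 fold change -1.69, adjusted p 0.080 in edgeR's test).

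In all, 8 of the 10 genes passed the count filter between the SW lines, and of the 7 other than HPGD, 3 passed the test, PTGS1 higher and PTGES and PTGR1 lower. Over all 20941 genes tested, 30.5% passed in either direction, 13.5% higher and 17.0% lower. Replicates of the lines did not overlap for 43.9% of genes. HPGD was chosen on this contrast, and HPGD and PTGR1 passed the filter through SW480 alone and PTGS1 through SW620 alone, so nothing is read from the count. In the authors' deposited table of this comparison, 8 of the 10 genes were listed, and of the 7 other than HPGD the same 3 (PTGR1, PTGES and PTGS1) had an adjusted p under 0.05. That table was made from the same counts.

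**Figure D2:**
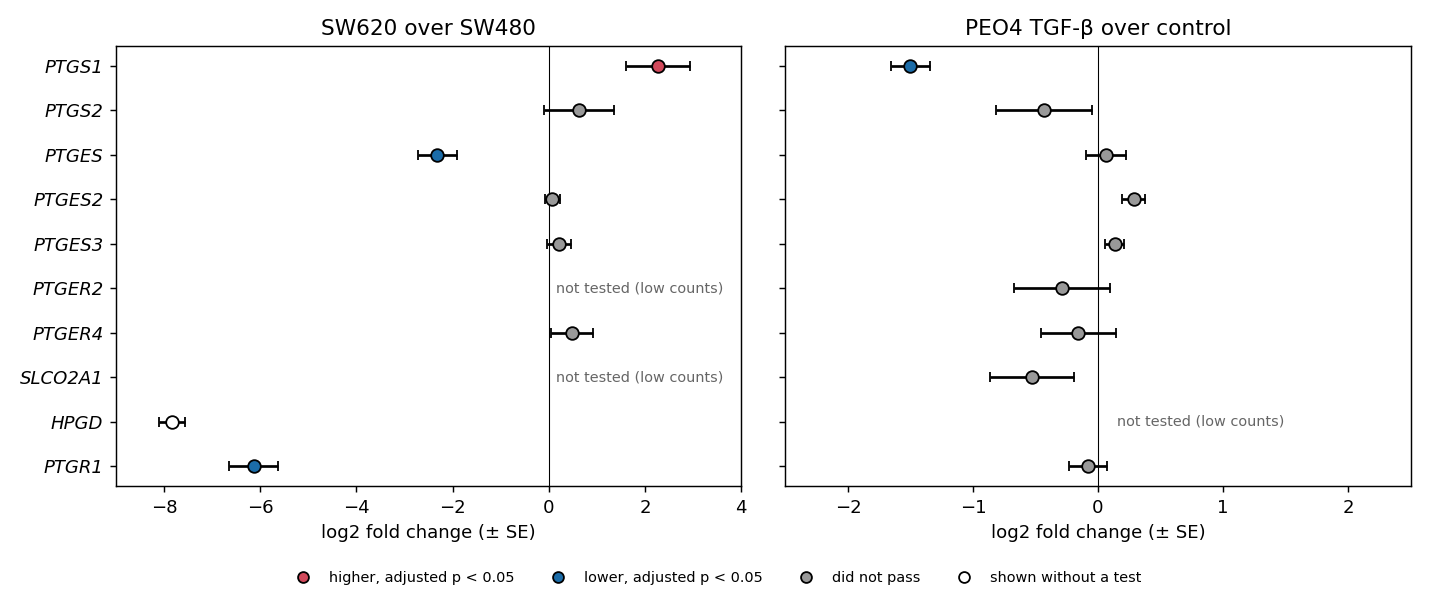
Log2 fold change ± SE of each prostaglandin gene in edgeR's fits, for SW620 over SW480 (left) and PEO4 with TGF-β over control (right), 3 libraries per group. Colour marks genes past an adjusted p of 0.05, grey those that did not pass, and the open point HPGD, shown without a test. PTGR1 stood at -6.14 between the SW lines, and PTGS1 at 2.27 there and at -1.5 with TGF-β.

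The second question is what 6 days of TGF-β changed in PEO4. PTGS1 was the 1 gene of the 9 tested that passed, and it fell. PTGS1 had 18.9, 19.8 and 19.2 CPM in control replicates 1 to 3 and 6.34, 8.71 and 5.93 CPM with TGF-β. The control libraries lay within 1 CPM of each other, and every treated library was below all of them. The log2 fold change was -1.5 ± 0.15 (SE, n = 3), or 2.83-fold lower (edgeR quasi-likelihood adjusted p 0.00233). Without any single library it ran from -1.66 to -1.40 and passed each time. The test against a 2-fold change gave an adjusted p of 0.42. Of 9 genes that passed the filter, 1 passed the test, where 2.26% of 19064 tested genes passed in either direction and 0.991% were lower. For 20.0% of tested genes the control and treated replicates did not overlap, as for PTGS1 and PTGES2 here. In the authors' deposited table PTGS1 had a log2 fold change of -1.5 and was the 1 gene of 9 listed with an adjusted p under 0.05.

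Of 5 ovarian line markers, 3 were lower in the same libraries: MSLN (-0.77), EMX2 (-0.49) and WT1 (-0.47), with edgeR's adjusted p of 0.00375, 0.0235 and 0.0274, while PAX8 (0.03) and FOLR1 (-0.56) did not pass. The 5 markers summed to 1503 to 1574 CPM in control and 1150 to 1251 CPM with TGF-β, and their part in the PTGS1 result was not tested. In these bulk libraries, fewer cells with the transcript and less transcript per cell cannot be told apart.

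PTGS2, the inducible cyclooxygenase, had 3.10, 2.02 and 1.40 CPM in control and 1.65, 2.26 and 1.04 CPM with TGF-β. The groups overlapped, and the log2 fold change of -0.43 had a 95% interval from -1.18 to 0.32. PTGES2 had 74.8, 68.9 and 86.5 CPM in control and 91.5, 95.8 and 99.6 CPM with TGF-β, so every treated library was higher. Its log2 fold change of 0.29 ± 0.09 (SE, n = 3) nevertheless did not pass (adjusted p 0.168, edgeR's quasi-likelihood test). PTGES (0.06, 95% interval -0.25 to 0.38) and PTGES3 (0.13, -0.02 to 0.29) did not pass, and the interval of each leaves out a 2-fold change.

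The receptors varied more between replicates than between treatments. PTGER2 had 4.07, 4.56 and 10.1 CPM in control, where replicate 3 stood above every other PEO4 library, and 3.09, 6.23 and 6.43 CPM with TGF-β. PTGER4 had 3.56, 5.89 and 3.32 CPM in control and 3.91, 4.96 and 2.92 CPM with TGF-β. Their log2 fold changes were -0.29 (95% interval -1.04 to 0.46) and -0.16 (-0.74 to 0.43).

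On the breakdown side, PTGR1 had 8.48 ± 0.238 CPM in control and 8.22 ± 1.26 CPM with TGF-β (SD, n = 3), and the 95% interval of its log2 fold change, -0.38 to 0.22, leaves out a 2-fold change. SLCO2A1 had 2.64, 2.77 and 3.63 CPM in control and 1.65, 1.54 and 3.16 CPM with TGF-β, with treated replicate 3 among the control values (log2 fold change -0.53, adjusted p 0.474 in edgeR's test). HPGD, which TGF-β is known to raise in colon epithelium, had 1 or 2 counts per control library and 1 to 3 with TGF-β. Its summed counts were 4 in control and 5 with TGF-β, a ratio of control over TGF-β of 0.836 (exact 95% interval 0.166 to 3.88, counting error only). A change of HPGD within that interval was not detectable at this depth.

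The third reading sets the lines side by side, using untreated PEO4. PEO4 and the SW lines differ in tissue, patient and medium, and these cannot be told apart. Both readings share the PEO4 control libraries. Against SW480, 7 of the 9 genes other than HPGD were higher in PEO4 control, where 56.7% of 23457 genes tested passed, 27.5% higher and 29.1% lower, and replicates did not overlap for 64.8%. Against SW620, 7 of 9 were higher, where 58.0% passed, 29.7% higher and 28.3% lower, and replicates did not overlap for 60.0%. SLCO2A1 entered this model through the PEO4 groups alone, where it is high, and so had to differ. PTGER2 met the count filter of this model in the SW480 libraries as well. Nothing is therefore read from either count.

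PTGS1 had the clearest order of levels: 19.3 ± 0.469 CPM in PEO4 control, 6.99 ± 1.5 with TGF-β, 1.14 ± 0.193 in SW620 and 0.241 ± 0.211 in SW480 (SD, n = 3), with no overlap between neighbours. PEO4 control exceeded SW480 by a log2 fold change of 6.33 ± 0.39 and SW620 by 4.07 ± 0.32 (SE; adjusted p 5.40e-09 and 4.92e-08, edgeR's quasi-likelihood test). PTGER2 was higher in PEO4 control than in SW480 by 3.5 and than in SW620 by 5.19 on the log2 scale. Both calls were kept in all 20 alternatives. PTGER4 was higher by 2.46 and 1.99 (edgeR's adjusted p at most 0.000174). SLCO2A1 had to differ here, as said above, so no test of it is given. SLCO2A1 was higher by 2.17 and 5.36. Its 4 SW620 counts all came from replicate 2, and the fitted value against SW620 ran from 4.79 to 8.85 over single libraries left out, the latter without that replicate. PTGES stood at 14.1 ± 2.77 CPM with TGF-β, 13.2 ± 1.54 in PEO4 control, 5.54 ± 0.696 in SW480 and 1.09 ± 0.506 in SW620, where the PEO4 groups overlapped and the other neighbours did not. PTGES2 was higher in PEO4 control by 0.56 and 0.50 (adjusted p 0.00211 and 0.00421). The first call was lost in 1 of 20 alternatives and the latter in 3 of 20. Among these the latter was lost with total-count scaling (0.21, adjusted p 0.122) and with the 6 libraries of those groups alone (0.37, adjusted p 0.0518). PTGS2 was higher than in SW480 (1.94, adjusted p 0.0143) and did not pass against SW620 (1.34, adjusted p 0.064). Its call against SW480 was lost in 3 of 20 alternatives. These were the test against a 2-fold change (adjusted p 0.0840) and the fits without PEO4 control replicate 1 or SW480 replicate 1 (adjusted p 0.0618 and 0.0504).

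PTGR1 and PTGES3 broke this order. PTGR1 stood at 8.76 ± 2.62 CPM in SW480, 8.48 ± 0.238 in PEO4 control and 8.22 ± 1.26 with TGF-β (SD, n = 3), which overlapped, and at 0.120 ± 0.0870 in SW620. Between PEO4 control and SW480 its log2 fold change was -0.05 with a 95% interval from -0.55 to 0.45, and against SW620 it was 6.11 ± 0.40 (SE; edgeR's adjusted p 8.57e-09). SW620 was thus the 1 group of 4 with PTGR1 near the detection limit. PTGES3 overlapped between PEO4 control and each SW line (log2 fold changes 0.13 and -0.07; adjusted p 0.622 and 0.795). With total-count scaling these were -0.11 and -0.35, and the second passed (adjusted p 0.0435). HPGD was high in SW480 alone, at 51.0 ± 7.98 CPM, against 0.217 ± 0.0461 in SW620, 0.0729 ± 0.0266 in PEO4 control and 0.0900 ± 0.0654 with TGF-β.

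Divided by exon length (kb of merged exons in GENCODE 29), the levels can be compared between genes. PTGES3 was the highest of the 10 genes in every group, at 54.7 to 66.8 CPM per kb, and PTGES2 the second at 17.1 to 31.5 CPM per kb. HPGD was the third in SW480 at 9.23 ± 1.44 CPM per kb (SD, n = 3), above PTGES (2.92) and PTGR1 (2.33). Of the cyclooxygenases, PTGS1 stood at 3.33 and PTGS2 at 0.412 CPM per kb in PEO4 control, at 1.21 and 0.313 with TGF-β, at 0.197 and 0.163 in SW620 and at 0.0415 and 0.107 in SW480. In both SW lines the replicate values of the pair overlapped, and in both PEO4 groups they did not.

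**Figure D3:**
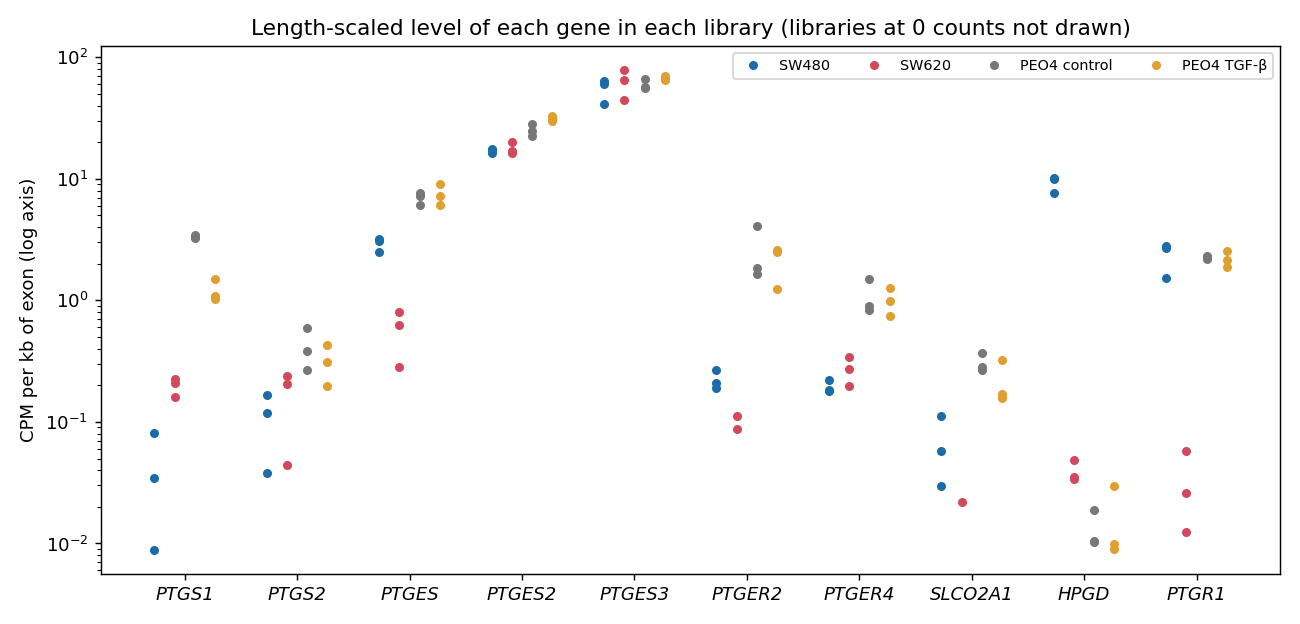
Level of each prostaglandin gene per kb of exon (CPM per kb, log axis) in each library, coloured by group. Libraries with 0 counts (SW620 for PTGER2 and SLCO2A1) are not drawn. PTGES3 and PTGES2 were the highest genes in all 4 groups, HPGD was high in SW480, and PTGR1 was low in SW620.

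The wider pathway was read from 5 lists of 41 genes (phospholipases A2, other terminal synthases, other prostanoid receptors, other carriers and catabolic enzymes, and the lipoxygenase arm). Between the SW lines 23 were tested, 4 were higher and 3 lower in SW620, with a median log2 fold change of 0.06 against 0.03 over all genes tested. These 7 of 23 are near the 30.5% of all genes that passed in this comparison, so the count sets the pathway apart in no way, and the genes below are given for their own values. Of other terminal synthases 4 of 6 tested passed, 3 higher and 1 lower, where 13.5% of all genes were higher and 17.0% lower. AKR1B1, an aldose reductase with prostaglandin F synthase activity, rose from 0.567 to 23.3 CPM (log2 fold change 5.34 ± 0.47, SE, n = 3). AKR1C3, also a prostaglandin F synthase, rose from 0.657 to 19.2 CPM (4.87 ± 0.38), with near-identical relatives in its family that make its counts uncertain. PTGDS, a prostaglandin D synthase, fell from 5.38 to 0.254 CPM (-4.37 ± 0.54), and TBXAS1, the thromboxane synthase, was higher (1.13 ± 0.32). PTGDS shares exon sequence with another annotated gene. AKR1B1 and AKR1C3, with 3 to 17 counts per SW480 library, passed the count filter through SW620 alone. PTGDS, with 2 to 8 counts per SW620 library, passed it through SW480 alone. These 3 genes therefore had to differ, and nothing is read from their tests or from the 4 of 6.

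Among carriers and catabolic enzymes, 2 of 7 tested passed, near the 30.5% of all genes. ABCC4, which exports prostaglandins, was higher in SW620 (0.94 ± 0.18), and CBR3, a carbonyl reductase, was lower (-4.69 ± 0.64, SE, n = 3). CBR3 had 1 to 5 counts per SW620 library and passed the count filter through SW480 alone, so it had to differ. PTGR2, the second prostaglandin reductase, stood at 14.8 and 14.7 CPM in SW480 and SW620 (log2 fold change 0.01), and ZADH2, the third, at 25.4 and 24.0 CPM (-0.06), so among the 3 reductases the low level in SW620 was measured in PTGR1. Of the phospholipases, PLA2G4C was lower (-2.08 ± 0.48) and the other 3 tested did not pass. PLA2G4C, with 6 to 12 counts per SW620 library, also passed the filter through SW480 alone. Of 3 receptors and 3 lipoxygenase genes tested none passed (adjusted p from 0.171 to 0.811, edgeR), and the remaining 10 had too few counts.

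Among 8 genes that respond to cyclic AMP, the signal downstream of EP2 and EP4, 2 were higher and 3 lower in SW620, where 13.5% of all genes tested were higher and 17.0% lower. NR4A2 (2.04) and SIK1 (1.76) were higher, and PDE4B (-5.20), PDE4D (-2.12) and NR4A3 (-1.20) lower. PDE4B had 2 to 6 counts per SW620 library and passed the count filter through SW480 alone, so it had to differ. The members of the list moved in both directions, and PDE4B and PDE4D encode phosphodiesterases that degrade cyclic AMP. Of 5 genes reported to regulate HPGD 3 were higher, against the same 13.5% of all genes. SNAI1 (1.26 ± 0.36), a Snail-family repressor, FOXA2 (3.48 ± 0.30) and TGFBR2 (1.28 ± 0.22) were higher in SW620 (SE, n = 3, edgeR's adjusted p 0.028, 4.23e-05 and 0.00232). SNAI2 (0.60) and SMAD4 (0.06) did not pass. SMAD4 was low in both lines, averaging 3.25 CPM in SW480 and 3.34 in SW620, against 103 in PEO4 control. Markers moved between the lines as well: VIL1, CDH17 and LGR5 of the colorectal list, WT1, MSLN and FOLR1 of the ovarian list and PECAM1 were higher in SW620. CDH17 and PECAM1 passed the count filter through SW620 alone, so they had to differ. The part of the markers in these results was not tested.

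In PEO4 with TGF-β, 27 of the 41 pathway genes were tested and 1 passed, where 2.26% of all genes did, so this count too is near the background. CYP4F3, a hydroxylase of leukotriene B4, was lower, from 188 to 117 CPM on average (n = 3; log2 fold change -0.71, edgeR's adjusted p 0.0302), and it has a near-identical relative that makes its counts uncertain. The median over the 27 was 0.01 against -0.02 over all genes tested. None of the 8 cyclic AMP genes and none of the 5 HPGD regulators passed, and among the latter SNAI2 had 0.680 and 2.65 CPM (1.93 ± 0.42, SE; adjusted p 0.0539). PTGIS, the prostacyclin synthase, stood at 20.2 ± 5.73 and 21.5 ± 1.13 CPM in the PEO4 groups and at no more than 5 counts in any SW library.

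**Figure D4:**
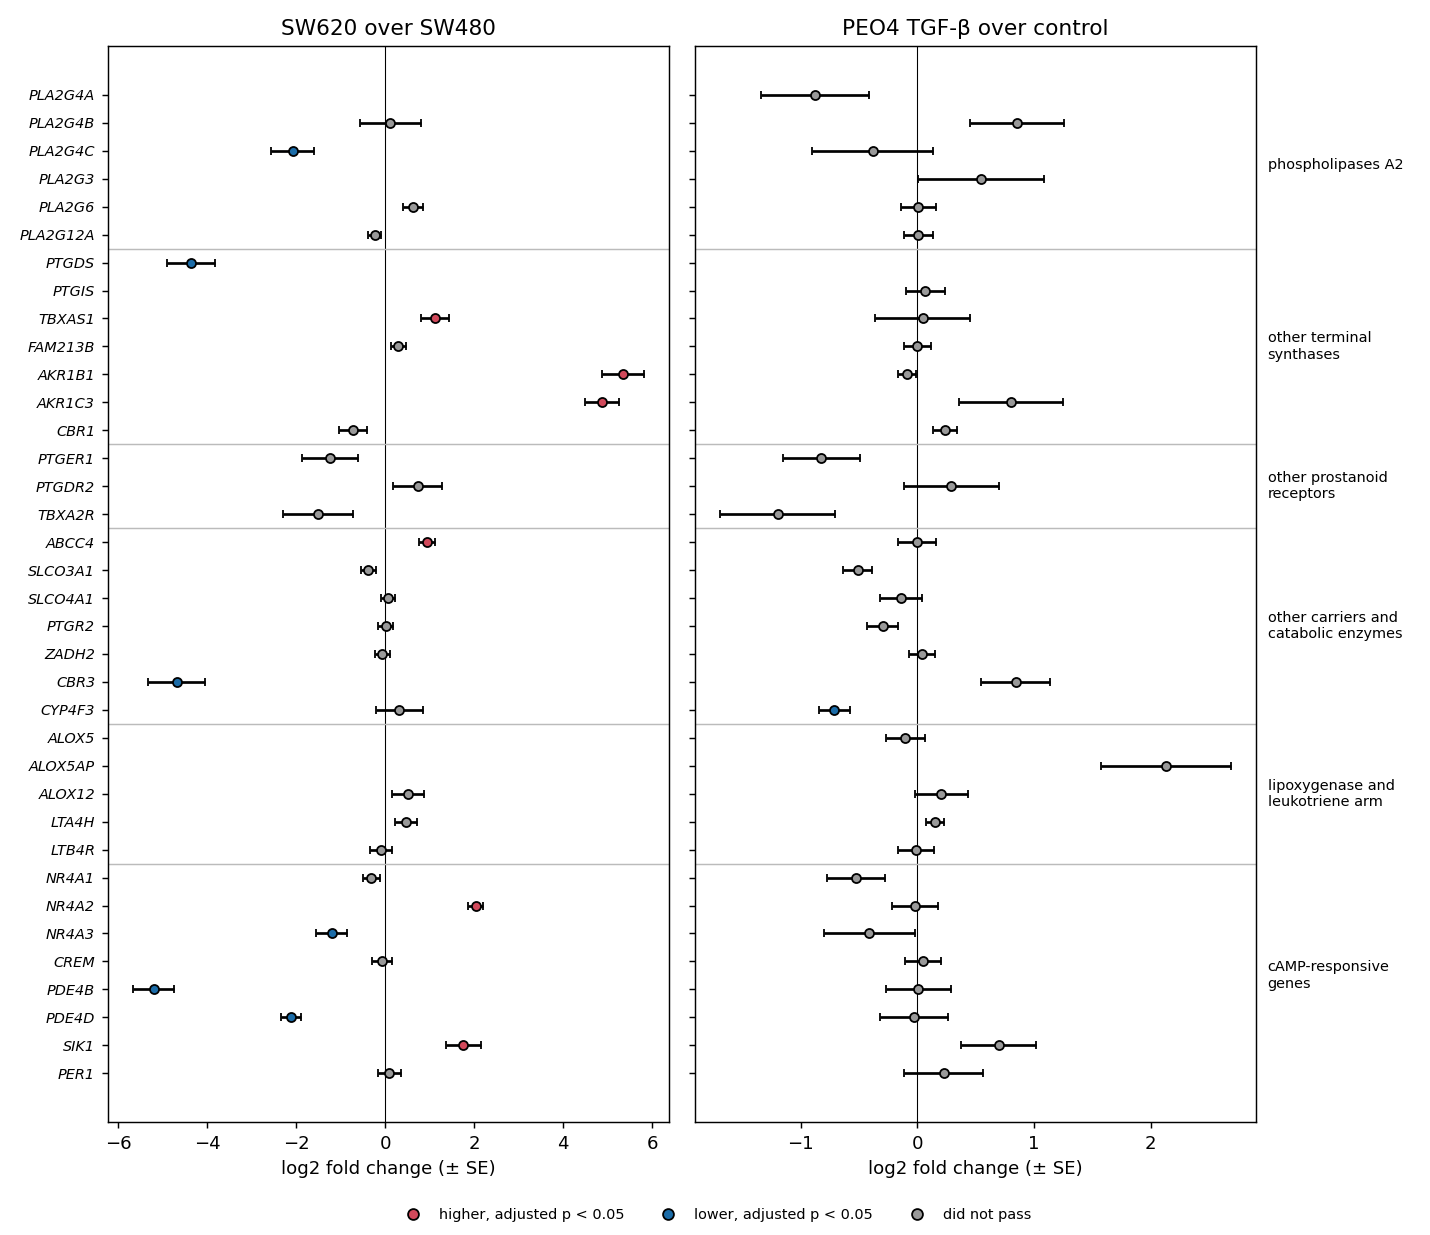
Log2 fold change ± SE of the tested genes of the 5 pathway lists and the cyclic AMP list, for SW620 over SW480 (left) and PEO4 with TGF-β over control (right), 3 libraries per group. Rows without a point had too few counts in that comparison. AKR1B1 and AKR1C3 stood above 4 on the left and PTGDS, CBR3 and PDE4B below -4, and on the right CYP4F3 was the 1 gene past the threshold.

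The genes whose levels followed HPGD most closely over the 12 libraries, by Pearson's correlation of log2 CPM among 11761 genes, were TREML2, IQGAP2, ZAP70, LHX1 and PASD1 (r from 0.991 to 0.996). All 5 were high in SW480, at 22.6 to 84.5 CPM, and at most 1.08 CPM on average in the other groups. Since the 12 points are 4 groups, such values describe a shared contrast of SW480 with the rest. For PTGS1 the closest were ATP6V1B1, GDPD5, MSLN, PNISR and PHLPP1 (r from 0.978 to 0.982), of which MSLN is an ovarian line marker. For PTGS2 they were ZNF254, FAM214A, ZNF720, BAZ2B and FRA10AC1 (r from 0.886 to 0.950), whose group means differed far less between the lines. With a prior count of 0.5, 3 of the 5 genes for HPGD, 1 of 5 for PTGS1 and 5 of 5 for PTGS2 were again the closest.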

How the data were processed

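The authors deposited whole-number counts per Ensembl gene for 12 libraries, and 485 of 57500 genes have no symbol. Per the submitters' processing notes, Trimmomatic 0.36, STAR 2.5.2b, featureCounts of Subread 1.5.2, DESeq2 and GRCh38 were used; annotation and strand setting are not given in the sources used here. The authors' deposited tables of comparisons also hold log2 fold changes and p-values with adjusted p-values, read here for the 10 genes, and a signal per library (the count over 1 size factor), not used here.

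Each comparison used all genes and the 6 libraries of its groups, fitted by edgeR 4.0.16 under R 4.3.3 (filterByExpr, TMM, quasi-likelihood test, two-sided, Benjamini-Hochberg, threshold 0.05); PEO4 was compared with the SW lines in 1 model of 12 libraries. Intervals at 95% use the fitted SE and a normal quantile, so they are narrower than the F test would give. SE is the log2 fold change over the square root of F. CPM uses TMM factors over 12 libraries. Counting intervals cover counting error only. Positions are from GENCODE 29, in which 56898 IDs were found. All 10 genes are named whatever their result, list genes when past the threshold or as contrasts to these, and the 5 closest genes by correlation. The 10 genes and the lists were chosen with earlier results of these data known. Methods were tested on simulated data. A permutation of 3 against 3 libraries cannot reach the threshold, so genes rest on the model. Same-numbered replicates were not taken as pairs. Alternatives were DESeq2 1.42.0, limma-voom (limma 3.58.1), other scalings, no filter, a replicate block, glmTreat, other sample sets and leaving out each library.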

Additional observations from a re-analysis of the deposited data

How the results depend on the processing

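PTGES between the SW lines kept its direction and its call in all 14 alternatives, and PTGS1 with TGF-β kept its direction in all 14 and its call in all but glmTreat. Between the SW lines 6385 genes passed, 10667 with the replicate block, 2504 with glmTreat and 4253 to 7419 without single libraries, and the 3 of 7 prostaglandin genes became 2 to 4. With TGF-β 431 genes passed, 967 with DESeq2, 1457 without the count filter, 2102 with the replicate block, 9 with glmTreat, 165 with all 12 libraries in 1 model and 72 to 1080 without single libraries. Of the prostaglandin genes there, 2 passed with the replicate block (PTGES2 at 0.29 on the log2 scale, adjusted p 0.0261, joined PTGS1), 0 with glmTreat, and 1 without any single library. Same-numbered replicates deviated together in some pairs but not all (correlations 0.02, 0.67 and 0.57 in the SW lines and 0.29, -0.14 and 0.48 in PEO4). Whether same-numbered replicates were prepared together was not tested.

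For PEO4 control against SW480, glmTreat called 6465 genes and 4 of the 7 prostaglandin genes, and against SW620 7100 genes, where 13290 and 13616 passed without it. Small differences changed sign: PTGES2 between the SW lines (-0.032 to 0.19 over single libraries left out, negative without SW620 replicate 3); with TGF-β, PTGES (-0.10 to 0.18 over single libraries left out), PTGER4 (-0.33 to 0.18), PTGER2 (-0.52 to 0.26) and PTGR1 (-0.17 to 0.015); against SW480, PTGES3 (-0.11 with total-count scaling, -0.028 to 0.31 over libraries) and PTGR1 (-0.26 to 0.16); and against SW620, PTGES3 (-0.29 to 0.15). PTGS2 against SW620 passed in 7 of 20 alternatives. The causes were not tested. Depth limits HPGD in PEO4 and SLCO2A1, PTGER2 and PTGS1 in the SW lines, which rest on a few counts per library.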
